A study of Drosophila melanogaster with 12 samples.

Results

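Calmodulin and a pair of proteins of its signalling pathway, the kinase CaMKII and the scaffold CASK, were examined by the 3′ ends of their transcripts in adult Drosophila heads. The members are the genes Cam (FBgn0000253), CaMKII (FBgn0264607) and CASK (FBgn0013759), chosen as named genes, 3 of the 9576 genes named in the deposited table of 3′-end clusters. A cluster was taken as a member's where its gene value holds that gene's identifier, alone or beside another gene. The members held 68 of 30878 clusters, with 29 for Cam, 12 for CaMKII and 27 for CASK. Each cluster is a short stretch of the genome, often a single base, where reads primed on the poly(A) tail, or on another run of A, begin.

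The 12 libraries came from UV-cross-linked powder of adult fly heads and form 4 groups of 3, named pum input, pum IP, w118 input and w118 IP. In the pum groups, the endogenous Pumilio protein (Pum), an RNA-binding repressor, carries a Flag-HA tag at its C-terminus. The w118 flies carry no tag, so that their IP records what the anti-Flag beads recover without one. All 4 groups share the powdered head as starting material, with males and females mixed, so that neurons, photoreceptors, glia, muscle and fat body are pooled. The experiment was made to compare RNA recovered with Pum with the RNA of the input.

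The 12 count columns of the table carry no library name, and so each value below is the sum of reads over all 12 columns ("pooled reads"). Input and IP, tagged and untagged flies are added together in it. A pooled value has no replicates and no test, and enrichment in the IP cannot be read from it. Shares are given with a 95% Wilson interval, which covers counting error only, since reads made by PCR without molecular identifiers are not independent molecules. Fewer cells of a type and less RNA per cell cannot be told apart in such bulk samples. Defining markers were present for each cell type of the head, at very unlike levels. Pooled reads ran from 8846 to 57919 for 5 neuronal genes and from 38851 to 1514215 for 5 photoreceptor genes. For 4 glial genes they ran from 3188 to 30300. For 3 muscle genes they ran from 797 to 45593, and for 3 fat-body genes from 2164 to 481444. The 3 germ-line genes matched in the annotation had no cluster.

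Calmodulin is a small calcium sensor that, once loaded with calcium, binds and switches on many enzymes. One of these is CaMKII, a kinase that can phosphorylate itself and then stays active after calcium has fallen, and that is known for its part in learning and in synaptic plasticity. CASK is a scaffold of the membrane-associated guanylate kinase family that begins with a domain related to CaM kinases. It binds neurexin and the adaptors Veli and X11, and in flies it also associates with CaMKII and modulates its self-phosphorylation. The study lists each of the members among the genes with a neuronal 3′ UTR extension. A 3′ UTR is the part of the mRNA after the stop codon, and one gene can make short and long versions of it by ending its transcript at different poly(A) sites.

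In pooled reads, Cam was the highest of the members, with 281887 reads, and ranked 67 of 9495 annotated genes. CASK had 32986 reads and ranked 447, and CaMKII had 18589 reads and ranked 735. The median gene had 1713 reads. These ranks depended on which clusters were counted. Cam ranked 344 without clusters followed by an A stretch in the genome (39314 reads), CaMKII ranked 4643 when only annotated ends were counted (1335 reads), and CASK ranked 4849 without clusters that name a second gene (1370 reads). In this method a read is made per transcript end, so the counts were not scaled by length. The place of these reads differed between the members, as the plot of shares by category shows.

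**Figure D1:**
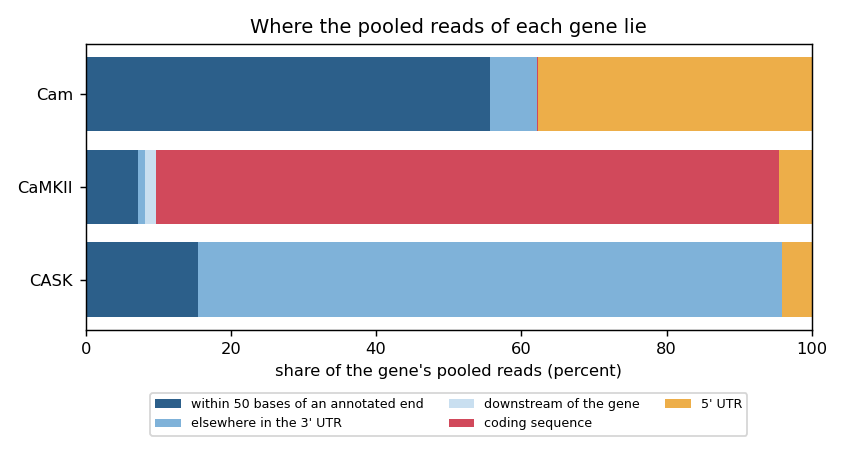
Share of each gene's pooled reads (percent, x axis) by the place of the cluster, for Cam, CaMKII and CASK. Most Cam reads lay near annotated ends (55.7%) or in the 5′ UTR (37.8%), most CaMKII reads in coding sequence (85.7%), and most CASK reads elsewhere in the 3′ UTR (80.4%).

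CaMKII is on the minus strand of chromosome 4, at 1035288 to 1053703 of dm6, with 12 annotated transcripts. Its largest cluster was not in the 3′ UTR. It lay in coding sequence, at chr4:1045159-1045165, and held 14931 of the 18589 pooled reads (80.3%, interval 79.7% to 80.9%). Only 5 coding clusters of protein-coding genes held more reads. The supported end of CaMKII, defined as the clusters within 50 bases of an annotated transcript end, held 1335 reads, so that the coding cluster was 11.2 times as large. Its median cluster held 331.5 reads, and the smallest 63. Over all genes, the largest cluster lay in coding sequence for 96 of 8987 protein-coding genes (1.07%) and for 8 of the 87 genes with clusters on chromosome 4.

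The coding cluster of CaMKII stood 3 bases before the end of an exon, chr4:1045156-1045248, that all 12 transcripts contain. The 10 bases after it hold 5 A in the genome, where the intron follows, which is below the limit the methods state for masking A stretches in the genome (6 A in a row, or 7 A among 10 bases). The limit alone does not tell listed from unlisted places, since 15.5% of the listed clusters meet it at their 3′-most base. Of these, 1738 lie over 25 bases from every annotated end in the release used here. In 1534 of the 1738, no base of the cluster lies outside an A stretch. In spliced transcripts the next exon follows instead, and which exon that is differs between transcripts. The number of A among the next 10 bases then ranged from 4 to 8, and 7 of the 12 transcripts met the limit. The sequences are shown because this difference between the genome and the mRNA can be read from them directly. Each runs 5′ to 3′ on the strand of the gene, from dm6, with the last 15 bases up to the cluster's 3′-most base in lower case and the next 10 bases in capitals. The first is the genome at chr4:1045144-1045173, and the others join chr4:1045156-1045173 to the start of the next exon, at chr4:1043513-1043524 in 6 transcripts and chr4:1043510-1043521 in 1, which are the forms that met the limit.
genome: aagacgatgacataaAAGGTAAGTAaataa
spliced, 6 transcripts: aagacgatgacataaAAGAAGATAAaaaag
spliced, 1 transcript: aagacgatgacataaAAGATAAAAAaggaa

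Directly after the cluster, the spliced forms shown hold 7 and 8 A among 10 bases, against 5 in the genome. A few bases further on, the genome sequence is rich in A as well. A pair of 5′ UTR clusters of CaMKII also had more A directly after them in spliced sequence. At chr4:1053498-1053500 lay 408 reads, and at chr4:1050694 lay 367 reads, each ending exactly at the last base of an exon. The genome has 4 and 2 A among the next 10 bases there, whereas the spliced transcripts, 7 of 7 and 2 of 2, have 8. Both exons are joined to the same next exon, at chr4:1050595-1050609 in its first bases. They are shown with the same use of capitals.
exon end at 1053498: acacatcaagtatagAAAACAAGAAataaa
exon end at 1050694: aaatggtacaacaatAAAACAAGAAataaa

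Together, the 6 clusters of CaMKII before the 3′ UTR held 16780 reads, of which 15706 lay in these 3 clusters. Another 449 reads at chr4:1045232 are followed by an A stretch in the genome itself. The remaining clusters, with 548 reads in coding sequence at chr4:1050333 and 77 reads in the 5′ UTR at chr4:1050598, are followed by 6 and 4 A and meet neither limit. Over all protein-coding genes, 212 of 2323 coding clusters (9.13%) lay in the last 10 bases of an exon that is followed by another, whereas such bases make up 2.04% of the coding sequence of these genes. Of those 212 clusters, which include the largest of CaMKII, 46.2% met the A limit in spliced sequence only, which is possible only next to an exon end. The share of all exon ends that meet the A limit in this way is not given here. Among 5′ UTR clusters, 139 of 2338 lay so near an exon end, of which 33.8% met it in spliced sequence only. How far priming on such stretches contributed to the reads was not tested.

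**Figure D2:**
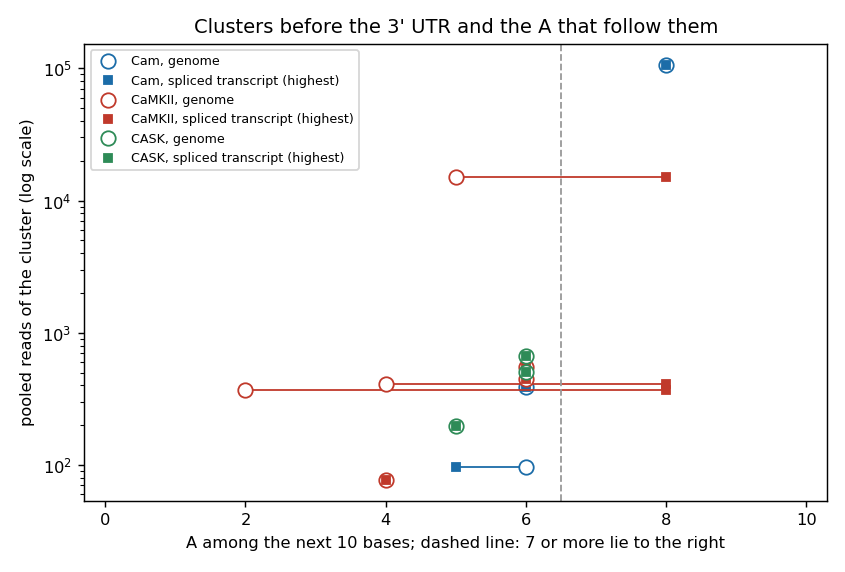
Number of A among the 10 bases after each of the 12 clusters that lie before the 3′ UTR (x axis), against the cluster's pooled reads (y axis, log scale), with open circles for the genome and filled squares for the spliced transcript with most A. A line joins the values of a cluster. The CaMKII cluster of 14931 reads moved from 5 to 8 A and those of 408 and 367 reads from 4 and 2 to 8, while the Cam cluster of 106321 reads had 8 in both.

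In the 3′ UTR of CaMKII and downstream of it lay 6 clusters with 1809 reads. The proximal annotated end, which closes a 3′ UTR of 123 bases in 2 transcripts, had its largest cluster exactly at the annotated base, chr4:1037155-1037163, with 944 reads. Clusters of 172 reads at chr4:1037170 and 219 reads at chr4:1037122 belonged to the same end. The distal end, which closes a 3′ UTR of 1990 bases in 10 of the 12 transcripts, had no cluster within 50 bases. The nearest cluster, at chr4:1035192, lay 96 bases past it and held 296 reads. Between the ends stood only 63 reads at chr4:1037076 and 115 at chr4:1036071. With a window of 100 bases in place of 50, the cluster at chr4:1035192 counts as the distal end and holds 17.5% (interval 15.7% to 19.4%) of the reads at both ends.

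The poly(A) signal AAUAAA precedes both the proximal end and the cluster past the distal annotated end of CaMKII. It stands 26 bases before the former and 17 bases before the latter, and it is shown in capitals, at chr4:1037161-1037190 and chr4:1035192-1035218 on the minus strand, because both sites carry it although only the former is at an annotated end.
CaMKII proximal end: tgcgAATAAAgatgctagtgcaaattttat
CaMKII past the distal annotated end: tacaAATAAAtacttaaaatgaaaatc

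CASK is on the minus strand of chromosome 3R, at 21783400 to 21822674, with 8 annotated transcripts. Of its 27 clusters, 24 lay in the 3′ UTR and held 31616 of the 32986 reads. No cluster lay in coding sequence. The other 3 clusters lay in the 5′ UTR, with 669, 196 and 505 reads (4.15% in all, interval 3.94% to 4.37%), and none of them is followed by an A stretch in the genome or in spliced sequence. All 24 clusters of the 3′ UTR also name lncRNA:CRG (FBgn0266181), a noncoding gene known as the CASK regulatory gene. This gene consists of 1 exon on the same strand, chr3R:21783540-21786208, and its whole span lies within the longest CASK 3′ UTR. Within that span lie 20 of the clusters, with 27046 reads, and there the reads of CASK and of lncRNA:CRG cannot be told apart. The other 4, with 4570 reads, have their 3′-most base past the annotated end of lncRNA:CRG. Of these, clusters of 3232, 124 and 259 reads lie only 2, 8 and 18 bases from that end. Their reads cannot be assigned to either gene. No cluster names lncRNA:CRG alone.

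The 3 annotated ends of CASK each had a cluster at the annotated base itself. The proximal end (3′ UTR of 758 bases, 3 transcripts) held 272 reads, the middle end (921 bases, 4 transcripts) 3882 reads and the distal end (3283 bases, 1 transcript) 955 reads. As shares of the reads at supported ends these were 5.32% (interval 4.74% to 5.97%), 76.0% (74.8% to 77.1%) and 18.7% (17.6% to 19.8%). Only 2.52% of the 8492 genes with a supported end had 3 or more. The average 3′ UTR length, in which each end's length is weighted by its reads, came to 1354 bases or 41.2% of the longest, against a median of 73.9% over 1431 genes with several ends. This place below the median depended on the clusters counted. It was 75.0% with every cluster from the 3′ UTR onward (median 87.0%) and 83.0% without clusters followed by an A stretch (median 80.6%), where the middle end kept no reads.

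Most CASK reads lay at none of these ends. The largest cluster, at chr3R:21783966-21783970, held 18939 reads (57.4%, interval 56.9% to 57.9%) and stood 566 bases before the distal end of CASK and 426 bases before the end of lncRNA:CRG. It was 4.98 times as large as the next, and 9 of the 10 bases after it are A in the genome. No AAUAAA or AUUAAA was found in the 50 bases before it. The cluster at chr3R:21783538-21783542, with 3232 reads, lay 2 bases from the annotated end of lncRNA:CRG, is followed by 4 A among 10 bases, and has AAUAAA 17 bases before it. Neither position is an annotated end of CASK. The windows of both are shown with those of the annotated ends, since they differ in these features, and capitals mark the 10 bases after the first cluster and the poly(A) signal in the others. They lie on the minus strand at chr3R:21783951-21783980, chr3R:21783538-21783564, chr3R:21785775-21785804 and chr3R:21785925-21785951.
CASK largest cluster: gttgatattacataaAAAAAAAAGAaaagg
end of lncRNA:CRG: attaAATAAAaacgagtaaacactgaa
CASK middle end: aaaaAATAAAattaattcagatcacaacac
CASK proximal end: aaaaAATAAAcaaattacgatgtgagc

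The distal CASK end has neither hexamer within 50 bases, and the nearest common variant is AAUAUA, 16 bases before it. The middle end is followed by 9 A among 10 bases, the distal end by 3 and the proximal end by 4. In all, 7 of the 27 clusters are followed by an A stretch in the genome, and they held 73.4% of the CASK reads (interval 73.0% to 73.9%). Without them 8759 reads remained. Along the 3′ UTR the clusters fell into a group up to 1248 bases past the start and a group from 2436 bases on, with none between. The 20 clusters more than 1000 bases past the start held 27365 reads, 86.6% of those of the 3′ UTR.

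The consensus site of Pum, the Pumilio response element UGUANAUA with N for any base, was searched on the strand of the gene. It is in the 3′ UTR of none of the members, whether this was read up to the most distal supported end or over its whole annotated length. Of 8482 genes read up to the most distal supported end, 22.4% hold it. The shorter motif UGUANAU, whose matches contain those of the full element, is in 39.3% of these genes. It occurs 3 times in CASK, 1 time in Cam and not at all in CaMKII. Neither these counts nor these shares are adjusted for the length of the 3′ UTR. Up to the most distal supported end, that of Cam (5015 bases) was longer than in 98.8% of genes. That of CASK (3283 bases) was longer than in 96.8%, and that of CaMKII (123 bases) than in 28.1%. The whole annotated one of CaMKII (1990 bases) was longer than in 90.6%. Over the 8482 genes the full element occurred 0.479 times per kilobase, against 0 in each member. Whether the members hold fewer matches than their length would give was not tested. The CASK matches are shown in capitals because their position differs with respect to the annotated ends. The first, at chr3R:21786163-21786169, lies before all 3 supported ends. The other matches, at chr3R:21784289-21784295 and chr3R:21783786-21783792, lie only in the longest 3′ UTR, and the largest cluster stands between them.
CASK 514 bases past the start: attaaacgcttaTGTAAATcttgcacttgt
CASK 2388 bases past the start: gagatagatgtaTGTACATtttgaagctcc
CASK 2891 bases past the start: aatgtcaatatgTGTAGATtgacgcgattt

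A match is a description of the letters and not a binding site, and the absence of a match says only that these letters are not in the window. The cytoplasmic polyadenylation element UUUUAU, known from mRNAs whose tails are lengthened in the cytoplasm, occurs 4 times in the annotated 3′ UTR of CaMKII (2.01 per 1000 bases, against 1.20 over all genes), 3 times in Cam (0.598 per 1000 bases) and 1 time in CASK (0.305 per 1000 bases). It is in 41.7% of the annotated 3′ UTRs of 8486 genes.

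**Figure D3:**
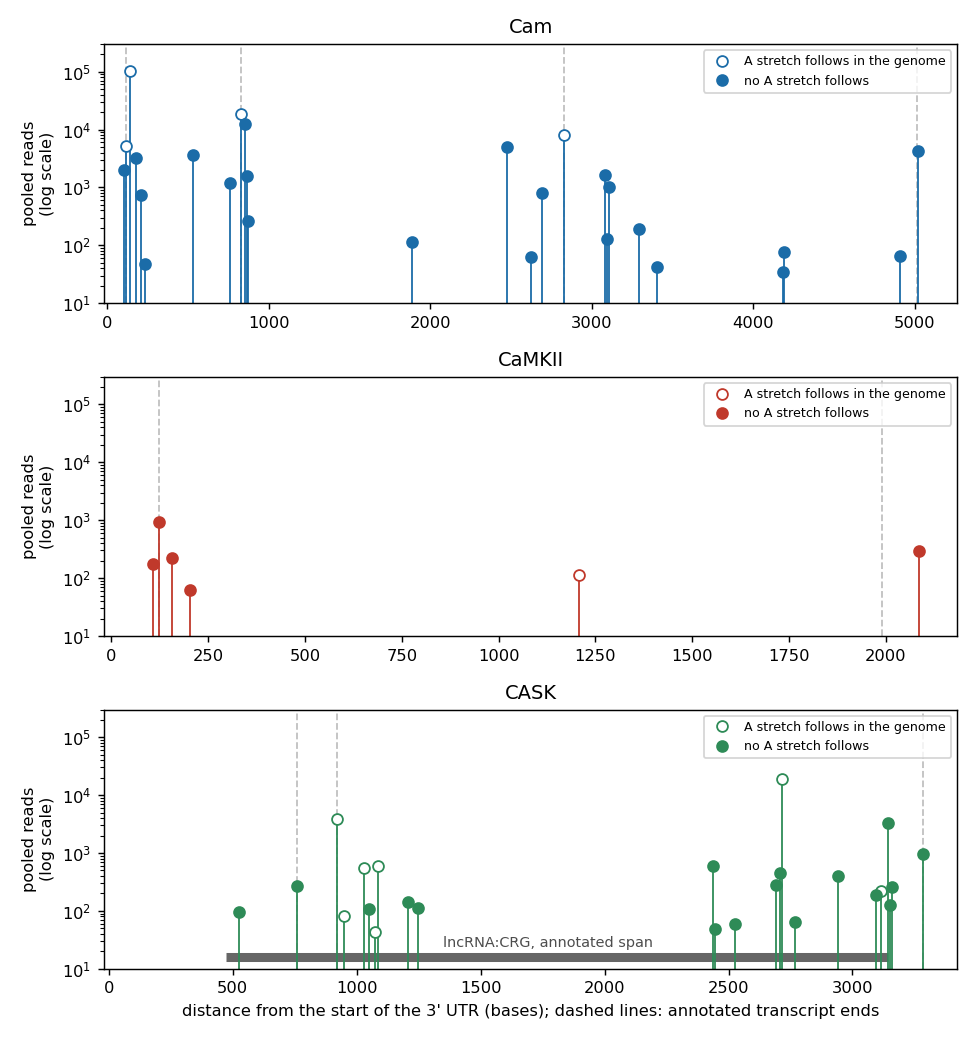
Pooled reads of each cluster (y axis, log scale) by its distance from the start of the 3′ UTR (x axis, bases), for Cam, CaMKII and CASK. Dashed lines mark annotated transcript ends, open circles clusters followed by an A stretch in the genome, and the grey bar the span of lncRNA:CRG. The highest point is an open circle for Cam (104182 reads) and for CASK (18939 reads) and a filled one for CaMKII (944 reads).

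Cam is on the plus strand of chromosome 2R, at 12259398 to 12278809, with 5 annotated transcripts. The 2 largest of its 29 clusters were almost equal and stood at opposite ends of the gene. One, in the 5′ UTR at chr2R:12260152-12260167, held 106321 reads (37.7%, interval 37.5% to 37.9%). The other, at chr2R:12273918-12273934 near the most proximal annotated 3′ end, held 104182 reads (37.0%, interval 36.8% to 37.1%), so that the former was 1.02 times as large. Only 1.94% of protein-coding genes had their largest cluster in the 5′ UTR.

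The 5′ UTR cluster of Cam lies 21 bases before the end of its exon and is followed by 8 A among 10 bases, in the genome and in spliced transcripts alike. It is also named with lncRNA:CR43900 (FBgn0264501), a noncoding gene on the same strand at chr2R:12259409-12260813, whose annotated end lies 646 bases further on. The reads of the pair cannot be told apart there. No cluster names that noncoding gene alone. A second cluster of the Cam 5′ UTR held 97 reads, and the coding sequence held 387 reads in 1 cluster.

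All 4 annotated 3′ ends of Cam were supported, which put it among the 0.518% of genes with 4 or more. The first end, with a 3′ UTR of 140 bases, held 111405 of the 156995 reads at supported ends (71.0%, interval 70.7% to 71.2%). The second (831 bases) held 33295 reads (21.2%), the third (2829 bases) 7973 reads (5.08%) and the fourth (5018 bases) 4322 reads (2.75%, interval 2.67% to 2.84%). This order rested on clusters followed by an A stretch, without which the same ends held 1993, 14428, 0 and 4322 reads. Beyond the first end lay 29.0% of the reads (interval 28.8% to 29.3%), against a median of 45.7% over 1226 genes with ends in 1 continuous 3′ UTR. Without A stretches the share was 90.4%, above the median of 56.2%. With every cluster from the 3′ UTR onward taken as an end of its own, it was 98.9% (median 77.5%). The proximal end in that setting was a cluster of 1993 reads, itself part of the first end. That value thus counts the rest of the first end as beyond it, and is not comparable with 29.0%. The average 3′ UTR length of Cam was 557 bases, or 11.1% of the longest, and 1418 of the 1431 genes with several ends had a higher percentage.

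The first 3 ends of Cam are followed by A stretches, with 7, 9 and 10 A among 10 bases after their largest clusters. The distal end is followed by no A among 10 bases. AAUAAA stands 19 bases before the second end and 26 bases before the distal end, and neither hexamer was found in the 50 bases before the other ends. In all, 86.1% of the Cam reads (interval 85.9% to 86.2%) lay in 5 clusters followed by an A stretch, as did 17.6% of the pooled reads of the whole table. Without these clusters 39314 Cam reads remained, and the average 3′ UTR length at the supported ends was 32.9% of the longest. Outside the supported ends, 17 clusters of the 3′ UTR held 18087 reads, of which the largest was a single base at chr2R:12276269 with 5089 reads, followed by 2 A.

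The long 3′ UTRs of the members are rich in A. Cam had 40.2% A and CASK 39.3% up to their most distal supported ends, against a median of 33.8% over 8482 genes. The whole annotated 3′ UTR of CaMKII had 38.0%. The members parted in U, with 24.9% in Cam and 24.7% in CASK but 35.3% in the annotated 3′ UTR of CaMKII, beside medians of 31.0% for both ways of reading the 3′ UTR.

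The share of reads outside the 3′ UTR was set against that of all genes. It was 90.3% in CaMKII (interval 89.8% to 90.7%), and 130 of 8987 protein-coding genes had a higher share. It was 37.9% in Cam (interval 37.7% to 38.1%), with 340 genes above it, and 4.15% in CASK, with 1417 above. The Cam share rested on its 5′ UTR cluster of 106321 reads. It was 1.23% without clusters followed by an A stretch, with 1893 of 8715 genes above it, and 0.221% without clusters that name a second gene. In the first of these settings the share of CaMKII was 90.6%. The median gene had none, as the plot of this share against pooled reads shows.

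**Figure D4:**
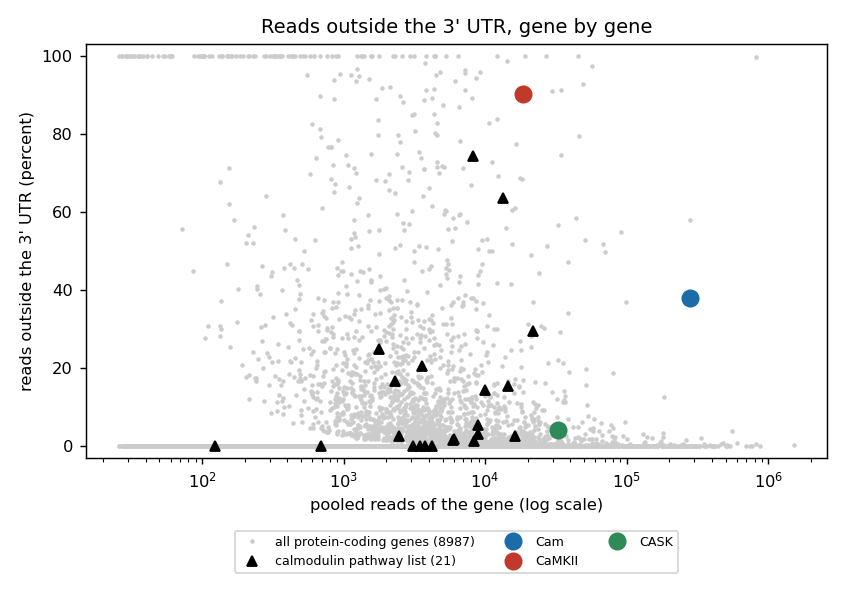
Share of a gene's pooled reads outside the 3′ UTR (percent, y axis) against its pooled reads (x axis, log scale), with grey points for 8987 protein-coding genes, triangles for 21 genes of the calmodulin pathway and large circles for the members. CaMKII lies near the top at 90.3%, Cam at 37.9% and CASK at 4.15%.

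Of 22 other genes of the pathway, 21 had clusters and each of these had a supported end. Camta, a calmodulin-binding transcription factor, had no cluster under its identifier in release 115. Of the 9576 genes named in the table, 9495 were matched in that release. A cluster listed under an older identifier would be missed, so absence of Camta cannot be read from this. The median of the 21 was 5929 pooled reads, and only Nrx-1, the neurexin that CASK binds, had more reads (21707) than CaMKII. None exceeded CASK or Cam. This too changed with the clusters counted, except for Cam, which none exceeded in any of the 4 other settings. In the 3′ UTR and downstream, 18 of the 21 exceeded CaMKII (1809 reads), and at annotated ends 14 did. For CASK, 4 had more at annotated ends, 19 without clusters that name a second gene and 2 without A stretches. The gene eag, which encodes a potassium channel that CaMKII phosphorylates in flies, had 16372 reads, 84.1% of them followed by an A stretch. Among the partners of CASK, veli had 4244 reads in 1 cluster at its annotated end, X11L 2481 and X11Lbeta 6075.

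The gene igl, which encodes a neuronal calmodulin-binding protein, was the only other gene of the pathway whose largest cluster lay in coding sequence, and 63.5% of its 13364 reads lay outside the 3′ UTR. Strn-Mlck, a myosin light chain kinase of muscle, had 74.3% of 8219 reads outside it, although its largest cluster was at an annotated end. CaMKI, the related single-unit kinase, had 14.3% of 10020 reads outside. In the phosphatase calcineurin, which calmodulin also activates, the catalytic subunits CanA-14F and Pp2B-14D had 8974 and 3581 reads. Its regulatory subunits CanB and CanB2 had 8311 and 2325 reads, and the calcineurin regulator sra had 3075. The calcium-dependent adenylyl cyclase rut had 3777 reads and the phosphatase gene Pp1-87B 3486, none of them outside the 3′ UTR. Of the other calcium sensors, Cbp53E had 14582 reads, Frq1 5929 and Nca 1780.

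Several supported ends were found in 6 of the 22 genes, and in 16.9% of all 8492 genes with a supported end. Their average 3′ UTR length ran from 19.8% of the longest in CanA-14F to 90.7% in CanB2, beside 11.1% in Cam and 41.2% in CASK. The calbindin gene Cbp53E had 43.6%. Without clusters followed by an A stretch, 4 pathway genes kept several ends, at 57.7% to 98.4%, beside 32.9% in Cam and 83.0% in CASK. Nrx-1 stood at 46.2%, X11Lbeta at 82.1% and dlg1, which encodes another synaptic scaffold of the same family as CASK, at 77.5% with 4 supported ends. These positions are shown in the plot of average length.

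**Figure D5:**
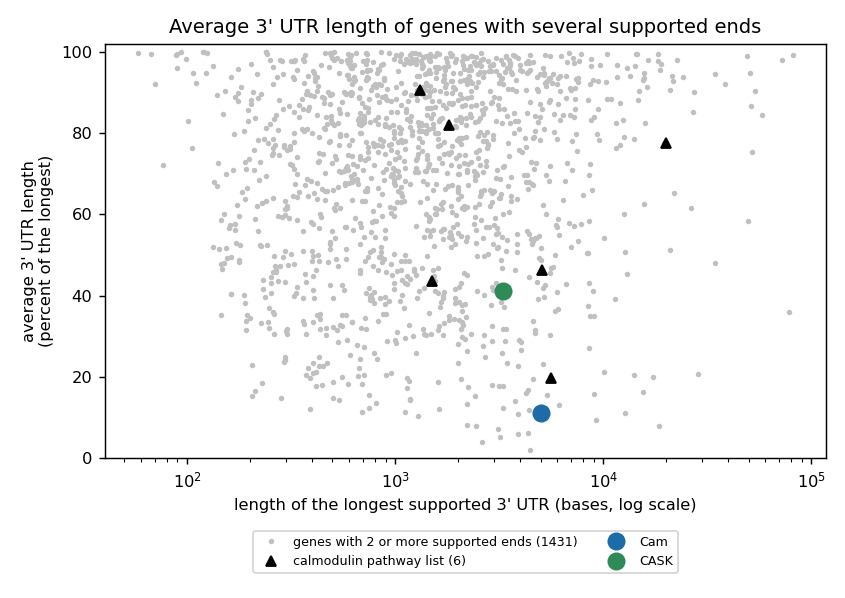
Average 3′ UTR length as percent of the longest (y axis) against the length of the longest supported 3′ UTR (x axis, bases, log scale) for 1431 genes with several supported ends, with triangles for 6 genes of the calmodulin pathway. Cam lies near the bottom at 11.1% of 5018 bases and CASK at 41.2% of 3283 bases. CaMKII, with 1 supported end, has no point.

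The genes most like Cam in average length percent and in the log10 length of the longest 3′ UTR, among 1286 genes with several supported ends and at least 1000 pooled reads, were fabp (11.8% of 4379 bases), Nubpl (13.0% of 6129 bases) and zormin (15.5% of 5391 bases). Those most like CASK were fz2 (42.2% of 3227 bases), robo3 (41.3% of 2942 bases) and CG42322 (43.0% of 3038 bases). Likeness was measured as the distance in these 2 values, each divided by its SD over the genes. Clusters followed by an A stretch were included in it. Without them Cam stood at 32.9% and CASK at 83.0%, so these lists hold only for the setting used.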

How the data were processed

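xRIP-3′-seq libraries were made with the QuantSeq REV kit, which primes on the poly(A) tail. After trimming (fastp), the authors mapped the reads to dm6 with STAR 2.6.1b and allowed no introns. Per the methods, bases before genomic A stretches were masked except within 25 bases of annotated ends. Of the listed clusters, 15.5% are nonetheless followed by one at the 3′-most base, 1738 of them further than that from every annotated end. In 1534 of the 1738 no base lies outside an A stretch, so the table was not taken as free of such stretches. The authors limited downstream signal to 500 bases, and clustered outward by up to 15 bases from peaks of at least 6 reads in 1 library. They then checked clusters against high-confidence 3′ ends from long-read sequencing and the Ensembl annotation. Their length analyses used only clusters in windows of 50 bases around such ends. That filter was not applied here. The deposited values are counts of reads per cluster. None of the 12 count columns could be assigned to a library, so their sum was used and depth per library is not reported here. The 32302 entries held 152324191 pooled reads. Entries of 1 strand that share a base list the same place more than once, and were merged with the reads of the largest, which left 30878 clusters. The 3′-most base was placed against Ensembl release 115 on the same assembly, with priority to transcript ends (up to 50 bases away), then 3′ UTR, downstream, coding sequence, 5′ UTR. This release is later than the one the authors state, and 9495 of the 9576 genes named were matched in it. Clusters at an end up to 50 bases apart were joined into a supported end, whose 3′ UTR length runs from the most proximal annotated 3′ UTR start. An A stretch was judged with the authors' limits at the 3′-most base. Poly(A) signals (AAUAAA and also AUUAAA) were read in the 50 bases before an end. Shares have Wilson intervals (scipy 1.17.1). The measures were tested on simulated data. The named genes are the members, the pathway genes with several supported ends or over 1000 pooled reads, and the 3 nearest genes by likeness. Camta was named after its values were seen. Members, lists and alternatives were chosen with earlier results of these data known. The comparison of protein sequences planned for CaMKII and CASK was not run. Spliced forms of the CaMKII coding cluster under the A limit are not reported here.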

Additional observations from a re-analysis of the deposited data

How the results depend on the processing

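No paired analysis was possible because the count columns name no library and only their sum was used. Over 28 results, 58 of 91 alternative values stayed within 1.5 times a count or within the interval of a share. Some of these could not move, such as a narrower Pumilio element where the full one gave 0. The tally is therefore not a measure of robustness. Alternatives that left out A stretches from reads, ranks and shares outside the 3′ UTR, or shared clusters from the latter, were added after seeing the data, as were the reads per end without A stretches and the medians and pathway counts under each setting. Pooled reads of Cam came to 175469 without clusters that name a second gene, 175082 in the 3′ UTR, 156995 at annotated ends and 39314 without A stretches (rank 344). Those of CaMKII came to 1809 in the 3′ UTR and downstream and 1335 at annotated ends (rank 4643). CASK kept 3 clusters and 1370 reads (rank 4849) without clusters that name a second gene, 5109 reads at annotated ends (rank 1811) and 8759 without A stretches (rank 1210). With a window of 25 bases, the most used end of Cam held 71.8%. With 100 bases, CaMKII had 2 supported ends, the most used holding 82.5%, and the average length of Cam was 10.9%. With each cluster of the 3′ UTR as its own end, average lengths were 13.3% in Cam and 75.0% in CASK. Reads beyond the first cluster that held at least 1% of them were then 98.9% and 87.8%. That cluster was part of the first end in Cam and of the middle end in CASK. Without A stretches, reads beyond the proximal end were 90.4% in Cam and 77.8% in CASK, and average lengths 32.9% and 83.0%. In that setting the share outside the 3′ UTR was 1.23% in Cam and 15.6% in CASK. Without clusters that name a second gene, that share was 0.221% in Cam and 100% in CASK. The shorter Pumilio motif gave 1 match in Cam and 3 in CASK against 0. Apart from what each setting removes by construction, the cause of these moves was not tested. Depth limits the CaMKII 3′ UTR most, with 1809 pooled reads in all.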
